A study of Mus musculus with 4 samples.

Results

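The genes described here are 48 members of the Wnt signalling pathway, out of 32286 features counted. They were listed by symbol, and the list was chosen with earlier results of these data known. They comprise 7 Wnt ligands, 13 receptors and co-receptors, 9 secreted inhibitors, 8 R-spondin axis genes and 11 transcription factors, targets and feedback genes. All 48 symbols were found once in the deposited feature list. The cells came from C57BL/6J mice of the genotype Tnfsf11tTA/+;LC1;R26-tdTomato, in which a tetracycline transactivator is carried at 1 copy of Tnfsf11, which encodes RANKL, the cytokine that osteoclasts need, LC1 is a Cre under the control of that transactivator, and tdTomato is a reporter that Cre switches on. Doxycycline until birth kept the system off before birth, so tdTomato marks cells, and the progeny of cells, in which the locus was active afterwards. Mice were 8 weeks old when hindlimbs were immobilized and 10 weeks old at sampling, after 2 weeks. Control mice carried the same alleles, had the same doxycycline and were of the same age. Live tdTomato+ cells without CD45.2 and Ter119, the markers of leukocytes and of red cell precursors, were sorted from marrow and digested bone of femurs and tibias of both limbs. Cells of 4 control and of 6 immobilized mice were pooled, so that each group is 1 pool.

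Wnt proteins are secreted glycolipoproteins that bind Frizzled receptors together with the co-receptors Lrp5 and Lrp6, or with Ror kinases. In the first case beta-catenin is spared from degradation and acts with Tcf and Lef proteins on target genes; the Ror branch works without beta-catenin. R-spondins, with Lgr receptors, remove the ligases Znrf3 and Rnf43 that clear Frizzled from the membrane, and so raise the response to Wnt. Dkk, Sfrp and Wif proteins and the carboxylesterase Notum dampen the signal outside the cell. In bone the pathway favours the formation of osteoblasts, the matrix-building cells, and sclerostin from osteocytes restrains it through Lrp4, Lrp5 and Lrp6.

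Each pool was sequenced in 2 lanes that held the same cells, with 10732720 and 10860328 UMIs (unique molecular identifiers, 1 per captured RNA molecule) in the control lanes and 9960011 and 10084134 in the immobilized lanes. On average over genes, lanes of a pool differed less than sampling noise allows. They were averaged as 1 sample, so a UMI number can end in 0.5. After filtering, 1441 control and 1428 immobilized cells remained. They fell into 17 clusters, formed without the 48 genes, of which 11 made up 4 classes named from marker lists. CAR cells (Cxcl12-abundant reticular cells, the Lepr+ stroma of the marrow) numbered 615 among control and 357 among immobilized cells, osteo-primed stromal cells 244 and 390, early osteoblasts 97 and 240, and mature osteoblasts 369 and 213. The summed level of the CAR marker list was 39647 and 33918 CPM (UMIs of a gene per 1e+06 UMIs of the class) in CAR cells and at most 4084 CPM in the other classes. Osteo-primed markers summed to 16690.2 and 18564 CPM in osteo-primed cells and to at most 2557 CPM elsewhere. The early list separated early from mature osteoblasts less, with 2966 and 3153 against 2225 and 2390.5 CPM, and the early cluster also carried 7 of the 11 mature markers. Median UMIs per cell were 3927 and 4378 in CAR cells, 5790.25 and 5442 in osteo-primed cells, 6718 and 7489 in early osteoblasts and 10379 and 8974 in mature osteoblasts.

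With 1 pool per group no spread between animals was measured. No test between pools is given, and a ratio or level carries a 95% interval in parentheses that covers counting error only. In what follows the first of a pair of values is the control pool and the second the immobilized pool. Other properties of the cells differed between the pools as well. The female share of the cells whose sex could be called was 50.5% and 31.2% in CAR cells, 68.6% and 55.5% in osteo-primed cells, 85.5% and 75.1% in early osteoblasts and 96.4% and 80.4% in mature osteoblasts. Granulocyte markers, genes of cells that the sort is meant to remove, summed to 188 and 393 CPM in CAR cells, 128 and 259 CPM in osteo-primed cells, 102 and 212 CPM in early osteoblasts and 81.3 and 179 CPM in mature osteoblasts, with at most 2 of 8 markers at 0. The 6 adipocyte markers summed to 33.4 and 97.2 CPM in CAR cells, with 1 at 0 in each pool. The 8 erythroid markers summed to 170.5 and 489.6 CPM in CAR cells and between 26.0 and 84.4 CPM in the other classes. The median mitochondrial share was 5.38% and 6.71% in mature osteoblasts. The part of these in the differences below was not tested, apart from the values within female and male cells given later.

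Most of the genes were highest in the same class in both pools. Of the 48 genes, 37 reached a mean of 20 counts per lane in some class of each pool, and for 31 of these the highest class was the same, against 68.3% of all 10411 genes so counted. For 17 the level was at least 2-fold that of the next class in each pool, against 9.95% of all genes. CAR cells were highest in both pools for 18 genes, among them most Frizzleds, the Sfrp inhibitors and both detected R-spondins. Osteo-primed cells were highest for 8 (Wnt5a, Wnt5b, Lrp4, Wif1, Lef1, Tcf7l2, Ccnd1 and Ctnnb1), early osteoblasts for 5 (Lrp5, Notum, Lgr6, Tcf7 and Apcdd1) and mature osteoblasts for none in both pools. Over all genes so counted the shares were 39.9% in CAR cells, 15.7% in osteo-primed cells, 7.65% in early osteoblasts and 4.94% in mature osteoblasts. The lead over the next class lay within the counting error for Wnt5a and Apcdd1 in both pools. The same held for Wnt5b and Lrp5 in the control pool and for Ror2 and Znrf3 in the immobilized pool. Wnt4, Fzd5, Fzd8, Dkk1, Frzb and Lgr4 were highest in different classes in the pools. By UMIs per cell in place of CPM, 20 of the 31 genes were highest in that class in both pools, and mature osteoblasts held the most UMIs per cell.

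**Figure D1:**
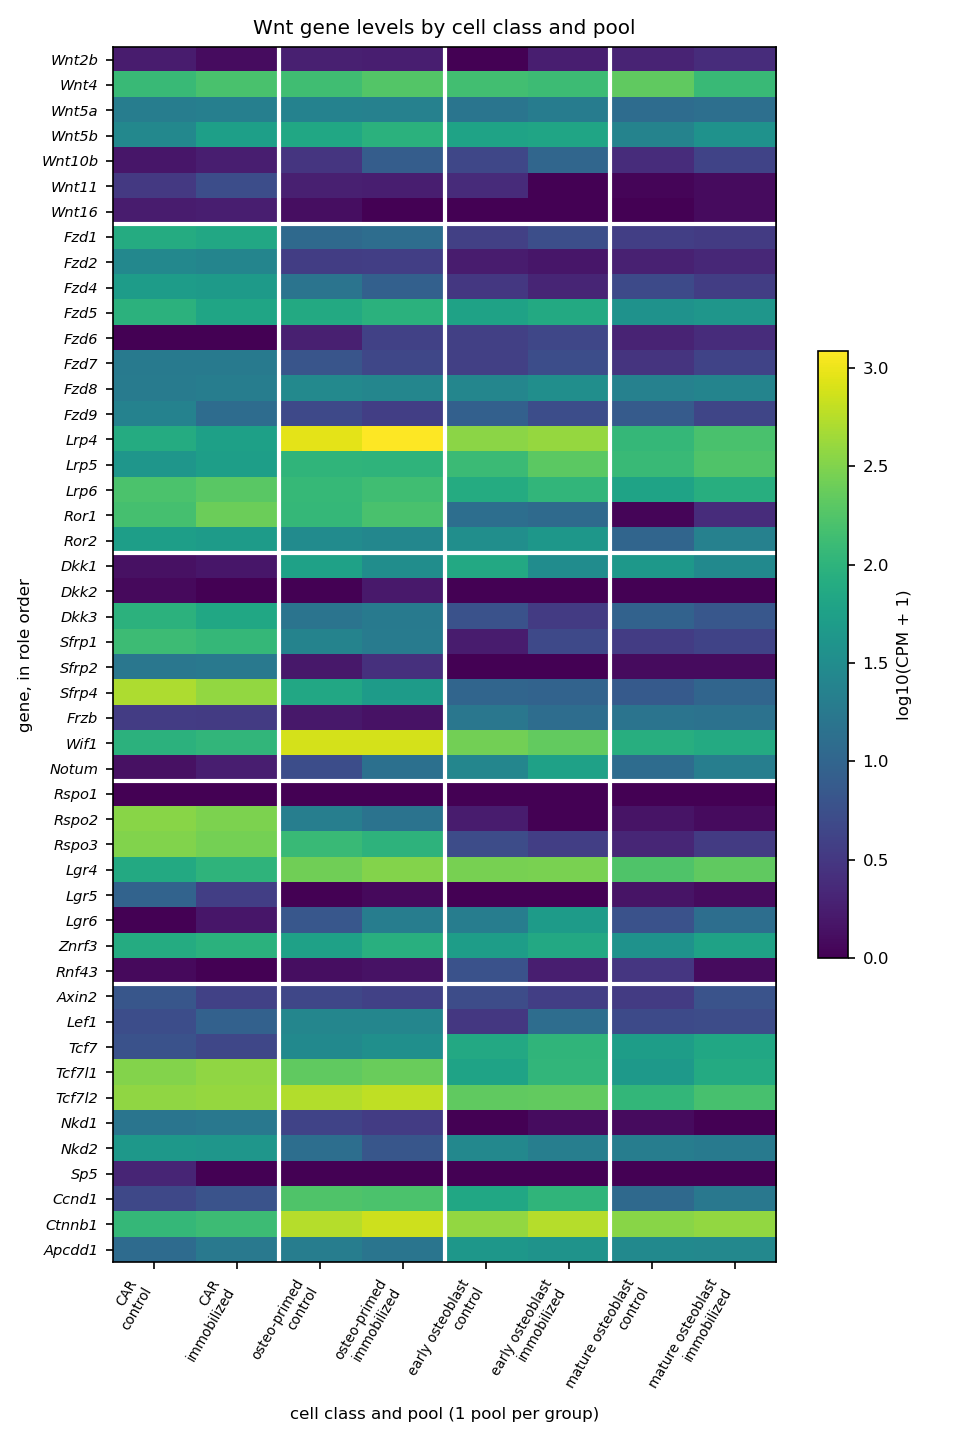
Level of each of the 48 genes in the 4 cell classes of the control and the immobilized pool, as log10(CPM + 1), with the genes in the order of ligands, receptors and co-receptors, secreted inhibitors, R-spondin axis, and transcription factors, targets and feedback genes, separated by white lines. The R-spondins and Sfrp4 are bright in CAR cells, Lrp4 and Wif1 in osteo-primed cells, and Rspo1, at 0 UMIs, is dark throughout.

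Between the pools few of the genes differed by 2-fold. In CAR cells 31 of the 48 genes had enough counts to be compared; Wnt5b was at least 2-fold higher in the immobilized pool, where 1.64% of all genes were, and Lgr5 at least 2-fold lower, where 1.83% were. In osteo-primed cells, of 31 compared, Notum and Lgr6 were higher (1.4% of all genes) and Nkd2 lower (1.28%). Of 25 compared in early osteoblasts, Notum, Lgr6 and Lef1 were higher (3.16%) and Dkk1 lower (0.496%). Among 26 in mature osteoblasts, Ror2 and Lgr6 were higher (1.87%) and no gene was lower (1.73%). The median log2 ratio of the compared genes was 0.06 in CAR cells, 0.15 in osteo-primed cells, 0.30 in early and 0.35 in mature osteoblasts, beside 0.02, 0.04, 0.11 and 0.11 over all genes compared in those classes. No gene was past 2-fold in all 4 classes, and Lgr6 was so in the 3 classes in which it could be compared.

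**Figure D2:**
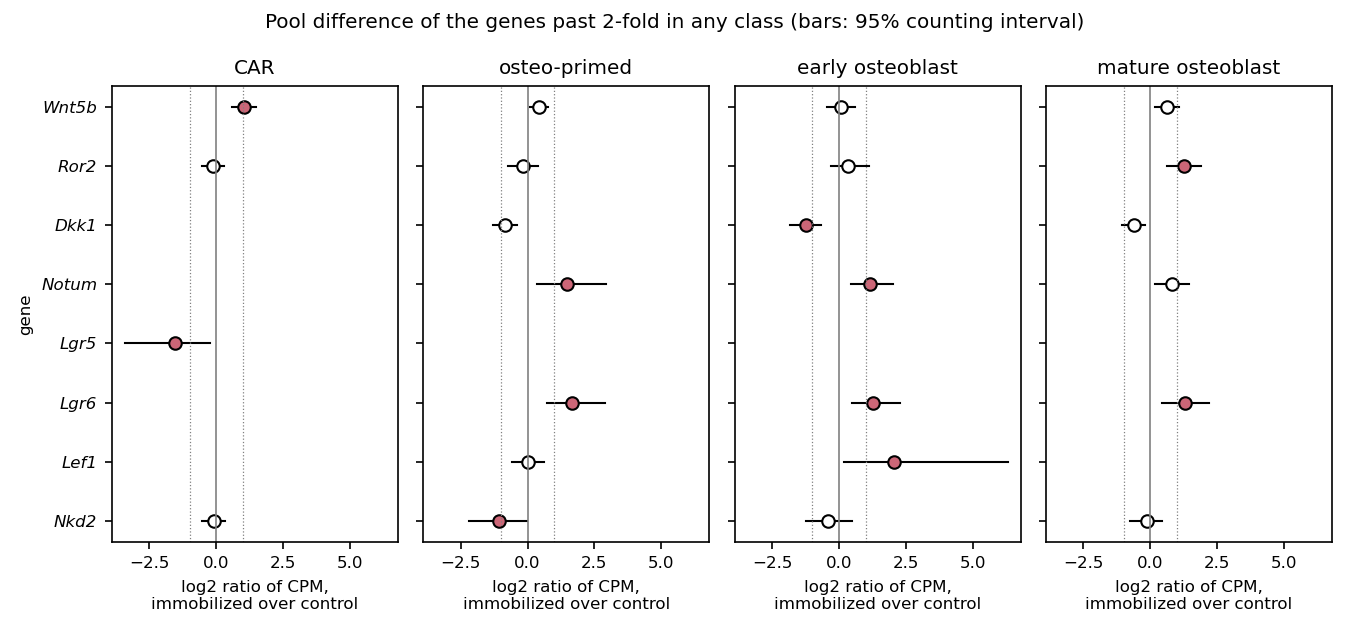
Log2 ratio of CPM, immobilized over control, of the 8 genes past 2-fold in at least 1 class, with 95% counting intervals as bars; filled points are past 2-fold (dotted lines), open points are not, and a missing point had too few counts. Lgr6 and Notum lie to the right of 0 in the 3 osteoblast-lineage classes, while Dkk1 lies to the left in the same classes.

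Of these 8 genes, 6 had an entry in the RefSeq promoter table (GRCm38.p6). The 250 bases before the annotated start of Dkk1 and of Lgr6 were taken as an example of a lower and a higher gene, chosen after their values were seen. Capitals mark the consensus of Tcf and Lef proteins, CTTTG and then any pair made of A and T, searched on both strands; no overlap between matches occurred here. Dkk1 lies on the minus strand of chromosome 19 (gene body 30545863 to 30549665) in GENCODE, and its window in RefSeq is chr19:30549497-30549746. RefSeq places the start inside the GENCODE gene body, so that 169 of the 250 bases, both matches among them, lie in the 5′ untranslated part of the GENCODE gene. Of this window only the stretch from the first to the last match, chr19:30549588-30549613, is shown. Lgr6 lies on the minus strand of chromosome 1 (134983301 to 135105276) and its whole window, outside the GENCODE gene body, is chr1:135105277-135105526.
Dkk1: CTTTGAAatcccatcccggCTTTGTT
Lgr6: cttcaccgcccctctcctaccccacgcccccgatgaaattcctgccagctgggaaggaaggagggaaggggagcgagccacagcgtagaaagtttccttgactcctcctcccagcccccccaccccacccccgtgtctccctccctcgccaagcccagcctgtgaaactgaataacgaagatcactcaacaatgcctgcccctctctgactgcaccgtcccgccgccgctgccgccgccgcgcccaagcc
The Dkk1 window held 2 matches, starting 117 and 98 bases before the RefSeq start, and the Lgr6 window held 0. Among the others Wnt5b and Lef1, higher in the immobilized pool, each had a window with a match, while the windows of Ror2, also higher, and of Nkd2, lower, had none. Of 32851 such windows over all genes 14.8% held a match, and of the 41 windows of the 31 Wnt genes found there, 17.1% did. Of the 11 windows of the 6 genes past 2-fold 3 held one, or 27.3%. A match is a run of letters and was not examined as a binding site.

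Few Wnt ligands were detected. Wnt4, known from kidney and bone formation, had the most UMIs of the ligands in each class, with 122 and 157 CPM in CAR cells, 135 and 180.5 in osteo-primed cells, 141 and 129 in early osteoblasts and 211 and 122 in mature osteoblasts. It was thus higher in the immobilized pool in the stromal classes, at ratios of 1.28 (1.09 to 1.51) and 1.33 (1.14 to 1.57), and lower in mature osteoblasts, at 0.575 (0.498 to 0.662), with 0.915 (0.721 to 1.17) in early osteoblasts. Mature osteoblasts were the highest class in the control pool, and osteo-primed cells in the immobilized pool, where they exceeded CAR cells by no more than the counting error. Wnt4 was lower in both mature clusters, at 201 and 108 CPM in the Bglap cluster and 226 and 137 CPM in the Atf3 cluster. Chondrocyte markers summed to 2728 and 1022 CPM in mature osteoblasts, and their part in this difference was not tested.

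Wnt5b, a ligand of the branch without beta-catenin, was at 26.7 CPM (20.9 to 33.6) in the control pool and 54.6 CPM (44.4 to 66.4) in the immobilized pool in CAR cells, a ratio of 2.04 (1.5 to 2.8). It had 72.5 and 100 UMIs there, and no cell held over 4.83% of them. The immobilized pool was higher in each of the 5 CAR clusters with at least 10 cells in both pools, with the widest gap in the largest of them, cluster 1, at 12 and 52.9 CPM. Across the other classes Wnt5b was at 68.8 and 92.3 CPM in osteo-primed cells, 61.2 and 64.6 in early and 23.3 and 36.4 in mature osteoblasts, with the immobilized pool higher in each, in early osteoblasts within the counting error. Wnt5a, its close relative, showed no such gap, with 19.4 and 20.2 CPM in CAR cells, 22.6 and 21.7 in osteo-primed cells, 14.9 and 18.8 in early osteoblasts and 11.2 and 12.4 in mature osteoblasts. Wnt2b, Wnt10b, Wnt11 and Wnt16 had between 0 and 17.5 UMIs in any class and pool and were not compared. Wnt10b, a ligand known to favour osteoblasts over adipocytes, had 3.5 and 17 UMIs in osteo-primed cells and 2.5 and 17.5 in early osteoblasts, and was nearest to the count limit.

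Among the receptors the Frizzleds divided by class. Fzd1 was at 77.2 and 69.4 CPM in CAR cells, 10.4 and 11.7 in osteo-primed cells, 2.85 and 4.58 in early osteoblasts and 2.74 and 2.44 in mature osteoblasts. CAR cells thus exceeded the next class 7.39-fold (4.56 to 12.7) in the control pool and 5.93-fold (3.91 to 9.28) in the immobilized pool. Fzd2 was likewise highest in CAR cells, with 26.4 and 24.6 CPM in CAR cells, 2.61 and 2.72 in osteo-primed cells, 0.712 and 0.538 in early osteoblasts and 0.913 and 1.22 in mature osteoblasts. Fzd4, known as the receptor of norrin as well as of Wnts, was at 49.4 and 47.2 CPM in CAR cells, 14.2 and 7.94 in osteo-primed cells, 2.13 and 1.08 in early osteoblasts and 3.88 and 2.68 in mature osteoblasts. Fzd7 was at 17 and 16.9 CPM in CAR cells and at most 5.51 CPM elsewhere. Fzd9, which is known to take part in osteoblast function, was at 22.1 and 11.2 CPM in CAR cells, 3.77 and 2.72 in osteo-primed cells, 7.83 and 4.31 in early osteoblasts and 6.74 and 3.42 in mature osteoblasts. Over all cells of a class, all 5 were thus highest in CAR cells. Fzd9 came closest to 2-fold between the pools, at a ratio of 0.506 (0.291 to 0.848) in CAR cells. Female CAR cells held only 2.5 and 1 UMIs of it, too few to compare the pools. At 1.93 and 2.06 CPM they were below female mature osteoblasts, at 6.36 and 2.34 CPM. Fzd9 in CAR cells thus lay mostly in male cells, with 42.5 and 19.5 UMIs and a ratio of 0.473 (0.262 to 0.827). Its UMIs were unevenly spread in the class: CAR cluster 8, led by Kit and Cxcl14, was at 66 and 27.4 CPM and cluster 7, led by Nrg3 and Aldh1a2, at 1.73 and 0 CPM.

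Fzd5 and Fzd8 were spread over all classes. Fzd5 was at 95.5 and 63.4 CPM in CAR cells, 74.3 and 92.8 in osteo-primed cells, 59.1 and 73.2 in early osteoblasts and 36.3 and 41 in mature osteoblasts. Over all cells of a class it was lower in the immobilized pool in CAR cells, at 0.664 (0.528 to 0.829), and not lower in the other classes, with ratios between 1.13 and 1.25. By sex the ratio in CAR cells was 0.86 (0.577 to 1.26) in female and 0.552 (0.402 to 0.752) in male cells. In osteo-primed cells it was 1.45 (1.08 to 1.96) in female and 0.898 (0.619 to 1.32) in male cells. Fzd8 was at 18.4 and 19.1 CPM in CAR cells, 27.6 and 25.3 in osteo-primed cells, 24.9 and 32 in early osteoblasts and 21.6 and 23.4 in mature osteoblasts, with neighbouring classes inside each other's counting error. Fzd6 had at most 7 UMIs in any class and none in CAR cells of either pool.

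The co-receptors differed by class. Lrp4, which binds sclerostin and presents it to Lrp5 and Lrp6, was at 906 CPM (861 to 952) in the control pool and 1217 CPM (1173 to 1262) in the immobilized pool in osteo-primed cells. In the other classes it was at 77.6 and 55.7 CPM in CAR cells, 357 and 398 in early and 112 and 157 in mature osteoblasts, and osteo-primed cells exceeded the next class 2.54-fold (2.22 to 2.92) in the control pool and 3.06-fold (2.82 to 3.32) in the immobilized pool. A UMI was seen in 86.9% and 89.2% of osteo-primed cells against 1.95% and 0.752% of haematopoietic cells, taken as the background of free RNA (median UMIs 2529 and 1666). After thinning each cell to 2000 UMIs the share in osteo-primed cells was 68.5% and 77.4%, among 238 and 378 cells deep enough. The pool ratio was 1.34 (1.26 to 1.43) in osteo-primed cells, 1.12 (0.966 to 1.29) in early osteoblasts and 1.4 (1.21 to 1.62) in mature osteoblasts, and in CAR cells it was 0.718 (0.561 to 0.914), there with 0.654 (0.442 to 0.945) in female and 1.09 (0.728 to 1.65) in male cells.

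Lrp5 and Lrp6, the co-receptors of the beta-catenin branch, differed in where they were lowest and highest. Lrp5 was at 40.7 and 53.3 CPM in CAR cells, 103 and 99.2 in osteo-primed cells, 125 and 205 in early osteoblasts and 124 and 170.1 in mature osteoblasts, least in CAR cells. In early osteoblasts its ratio was 1.64 (1.3 to 2.09) and in mature osteoblasts, where it had the most UMIs of the receptors, 1.38 (1.2 to 1.58). Lrp6 was at 161 and 196 CPM in CAR cells, 116 and 139 in osteo-primed cells, 79 and 107 in early osteoblasts and 60.1 and 85.2 in mature osteoblasts, most in CAR cells, and higher in the immobilized pool in each class. Haematopoietic cells also held Lrp6, with a UMI in 12.3% and 12% of them. Its level in them was higher in the immobilized pool as well, at 44.6 and 73.1 CPM (15 and 25 UMIs). The make-up of the haematopoietic cells differed between the pools, with 46 and 61 granulocytes, 14 and 57 erythroid and 17 and 15 B lineage cells. The part of this in their levels was not tested.

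The Ror kinases are receptors of Wnt5a. Ror1 was found mainly in the stromal classes, at 149 and 246 CPM in CAR cells, 114 and 159 in osteo-primed cells, 12.1 and 10.8 in early osteoblasts and 0.114 and 1.46 in mature osteoblasts. Its pool ratio was 1.66 (1.44 to 1.9) in CAR cells and 1.4 (1.17 to 1.67) in osteo-primed cells. Within CAR cells cluster 7 was at 153 and 400.2 CPM, cluster 1 at 138 and 239 CPM and cluster 11, led by Kcnq3 and Chl1, at 346 and 324 CPM, so that the gap was not common to all CAR clusters. By sex the Ror1 ratio in CAR cells was 2.21 (1.77 to 2.76) in female and 1.33 (1.1 to 1.61) in male cells. The difference between the sexes was not tested. Ror2 was found in all classes, at 53.1 and 48.9 CPM in CAR cells, 29.6 and 26.1 in osteo-primed cells, 32.7 and 42.5 in early osteoblasts and 9.13 and 22 in mature osteoblasts. Its ratio in mature osteoblasts was 2.4 (1.54 to 3.78), from 40 and 45 UMIs, and it was above 1 in the Bglap cluster (8.09 and 26.4 CPM) and in the Atf3 cluster (10.6 and 16.6 CPM). Haematopoietic cells held 0 UMIs of Ror2.

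The secreted inhibitors fell into a CAR group and a group of the osteoblast lineage. Sfrp4, which binds Wnts and is known for its part in cortical bone, was at 510.5 CPM (484 to 538) in the control pool and 380.4 CPM (353 to 409.7) in the immobilized pool in CAR cells and exceeded the next class 7.3-fold (6.06 to 8.87) in the control pool and 7.78-fold (6.39 to 9.55) in the immobilized pool. In osteo-primed cells it was at 69.9 and 48.9 CPM, in early osteoblasts at 9.25 and 8.61 and in mature osteoblasts at 6.39 and 9.03. The immobilized pool was lower in CAR cells, at 0.745 (0.679 to 0.817), and this held in each of the 5 CAR clusters with at least 10 cells in both pools, from 751 and 483 CPM in cluster 1 to 324 and 174 CPM in cluster 10, which is led by the lipid genes Fabp4 and Plin1. Sfrp1 was at 128 and 113 CPM in CAR cells, 23.2 and 18 in osteo-primed cells, 0.712 and 3.77 in early osteoblasts and 2.51 and 3.17 in mature osteoblasts, with its top in CAR cluster 10 at 252 and 202 CPM. Sfrp2 was at 15.7 and 16.7 CPM in CAR cells and had at most 4 UMIs in any other class and pool, and in the immobilized pool 10.5 of its 30.5 UMIs in CAR cells came from 1 cell. Dkk3, a divergent Dkk protein, was at 94.7 and 68.8 CPM in CAR cells, 14.5 and 17.1 in osteo-primed cells, 4.98 and 2.42 in early osteoblasts and 8.22 and 5.86 in mature osteoblasts, with a ratio of 0.726 (0.582 to 0.903) in CAR cells. By sex this ratio was 0.651 (0.461 to 0.903) in female and 1.26 (0.88 to 1.81) in male cells.

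Wif1, which sequesters Wnts, had the most UMIs of the inhibitors in the osteo-primed, early and mature classes. It was at 95.6 and 106 CPM in CAR cells, 759 and 776 in osteo-primed cells, 268 and 222 in early osteoblasts and 84.6 and 75.4 in mature osteoblasts. Osteo-primed cells exceeded the next class 2.84-fold (2.43 to 3.32) in the control pool and 3.5-fold (3.15 to 3.91) in the immobilized pool. The pool ratios were 0.828 (0.695 to 0.989) in early and 0.891 (0.734 to 1.08) in mature osteoblasts. CAR cluster 7 stood apart within its class, with 22 and 23.9 CPM against 105 and 108 CPM in cluster 1. Frzb, a relative of the Sfrp proteins known from cartilage, was at 15.7 and 11.8 CPM in early and 14.4 and 13.4 CPM in mature osteoblasts, and at most 2.58 CPM in the stromal classes. Dkk2 had at most 1.5 UMIs in any class.

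Dkk1, which blocks Lrp5 and Lrp6, was nearly absent from CAR cells, with 1 UMI in each pool. It was at 72.6 CPM (54 to 95.4) in the control pool and 30.7 CPM (23.2 to 39.8) in the immobilized pool in early osteoblasts, a ratio of 0.423 (0.285 to 0.629). In mature osteoblasts it was at 43.4 and 28.3 CPM, a ratio of 0.653 (0.478 to 0.88), and in osteo-primed cells at 57.5 and 32 CPM. Within female mature osteoblasts, 346 and 160 cells, the ratio was 0.795 (0.569 to 1.09), inside the counting error. The osteo-primed, early and mature classes were thus all lower in the immobilized pool, and so were all 5 clusters that make them up. A UMI was found in 20.6% and 13.1% of early osteoblasts, and in 10.6% and 4.48% after thinning, while haematopoietic cells held 0 and 1 UMIs. Among early osteoblasts 1 cell held 11.5 of the 51 control UMIs. In osteo-primed cells markers of pericytes or smooth muscle were lower in the immobilized pool as well, at 818 and 400.5 CPM with none of 10 at 0, as were chondrocyte markers, at 404 and 174 CPM with 2 and 1 of 9 at 0, and their part was not tested. With cells of at least 300 genes and under 20% mitochondrial counts the log2 ratio in early osteoblasts was -0.54, in place of -1.24, and at Leiden resolution 2.0 it was -0.66.

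Notum, which inactivates Wnts by cutting off their lipid, went the other way. It was at 24.9 CPM (14.6 to 39.6) in the control pool and 57.1 CPM (46.7 to 69) in the immobilized pool in early osteoblasts, a ratio of 2.29 (1.37 to 4.05), from 17.5 and 106 UMIs. In osteo-primed cells it was at 4.35 and 12.7 CPM, a ratio of 2.93 (1.29 to 7.62) from only 7.5 and 30.5 UMIs, and in mature osteoblasts at 11.3 and 19.8 CPM. CAR cells held 1 and 1.5 UMIs. The share of early osteoblasts with a UMI was 16.5% and 29.4%, and 4.38% and 12.1% after thinning, against 0% and 0.752% of haematopoietic cells. Early osteoblasts exceeded the next class 2.2-fold (1.2 to 3.87) in the control pool and 2.89-fold (1.99 to 4.26) in the immobilized pool. In mature osteoblasts the gap lay in the Atf3 cluster (7.32 and 26.3 CPM), while the Bglap cluster was at 14.2 and 14.3 CPM.

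Within the R-spondin axis Rspo2, Rspo3 and the receptor Lgr5 were highest in CAR cells in both pools, the receptor Lgr6 was highest in early osteoblasts, and Lgr4 was lowest in CAR cells. Rspo2 was at 343 CPM (321 to 366) in the control pool and 297 CPM (273 to 323) in the immobilized pool in CAR cells, and these exceeded the next class 17.4-fold (12.3 to 25.2) in the control pool and 21.2-fold (15 to 31.1) in the immobilized pool. It had 34 and 33.5 UMIs in osteo-primed cells, 0.5 and 0 in early osteoblasts and 2 and 0.5 in mature osteoblasts. Within CAR cells it was uneven: clusters 7 and 11 were at 524 and 730.3 CPM and 733 and 797 CPM, while clusters 1 and 8 were at 191 and 124 CPM and 137 and 75.3 CPM. The ratio over the class was 0.868 (0.779 to 0.965), with the immobilized pool higher in clusters 7 and 11 and lower in 1, 8 and 10. Cluster 7 held 199 control and 63 immobilized cells and cluster 1 held 179 and 183, so the make-up of the class differed too.

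Rspo3 was at 315 and 271 CPM in CAR cells, 121 and 98.6 in osteo-primed cells, 4.27 and 2.69 in early osteoblasts and 1.14 and 2.44 in mature osteoblasts. It was more even over the CAR clusters than Rspo2, between 209 and 461 CPM in the clusters with at least 10 cells, and reached osteo-primed cells, mostly cluster 2, which is led by Kcnk2, Ndnf and Angpt4 (223 and 153 CPM against 29.7 and 35.3 CPM in cluster 5, led by Megf10, Postn and Spp1). The ratio was 0.86 (0.769 to 0.962) in CAR cells and 0.815 (0.674 to 0.987) in osteo-primed cells. The lower level was seen in female cells and not in male cells: by sex the ratio in CAR cells was 0.77 (0.633 to 0.931) in female and 1.04 (0.889 to 1.23) in male cells, and in osteo-primed cells it was 0.54 (0.409 to 0.709) in female and 1.41 (0.998 to 2.03) in male cells. A UMI of Rspo3 was found in 61.5% and 55.9% of CAR cells and in 0 of 77 and 0 of 133 haematopoietic cells, which at their depth allows shares of cells with a UMI of up to 3.9% and 2.26%. Rspo1 had 0 UMIs in all classes of both pools.

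Lgr4, a receptor of R-spondins, was found in every class. It was at 73.7 and 101 CPM in CAR cells, 263 and 329 in osteo-primed cells, 285 and 292 in early osteoblasts and 169 and 213 in mature osteoblasts and had the most UMIs of the axis in the osteo-primed, early and mature classes. Its pool ratio was 1.25 (1.11 to 1.4) in osteo-primed cells, 1.03 (0.872 to 1.21) in early and 1.26 (1.12 to 1.42) in mature osteoblasts, and within osteo-primed cells it was 1.45 (1.25 to 1.69) in female and 0.922 (0.755 to 1.13) in male cells. Lgr6, another such receptor, was seen mainly in the osteoblast lineage: CAR cells held 0 and 1 UMIs, and the other classes were at 5.8 and 19.2 CPM in osteo-primed cells, 19.2 and 48.5 in early osteoblasts and 4.91 and 12.2 in mature osteoblasts. The ratios were 3.31 (1.65 to 7.36), 2.52 (1.42 to 4.86) and 2.49 (1.34 to 4.65), from 10 and 46, 13.5 and 90 and 21.5 and 25 UMIs. In osteo-primed cells nearly all of it lay in cluster 5, at 10.5 and 39.8 CPM, against 0.613 and 1.55 CPM in cluster 2. Of the 10 control UMIs of the class 3.5 came from 1 cell. The control lanes differed for Lgr6 here: the log2 ratio was 1.01 with control lane 1 alone and 2.90 with control lane 2 alone, in place of 1.67. The share of early osteoblasts with a UMI of Lgr6 was 9.79% and 19.4%, and 5.0% and 7.85% after thinning, against 1.3% and 0% of haematopoietic cells.

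Lgr5, known as a stem cell marker in gut and skin, was seen in few cells. It had 23.5 and 5 UMIs in CAR cells, at 8.66 and 2.73 CPM and a ratio of 0.315 (0.0938 to 0.845), and at most 2 UMIs in any other class. Of the 23.5 control UMIs 11 came from 1 cell and 19 lay in cluster 8. Znrf3, the ligase that R-spondins act on, was at 78.7 and 92.8 CPM in CAR cells, 57.5 and 88.2 in osteo-primed cells, 51.2 and 71.3 in early osteoblasts and 36.8 and 58.3 in mature osteoblasts. It was higher in the immobilized pool in each class, with the ratio largest in mature osteoblasts at 1.59 (1.24 to 2.02). Haematopoietic cells, with a UMI of Znrf3 in 7.14% and 13.9%, showed a higher share in the immobilized pool as well. The part of their different make-up in this was not tested. Rnf43 had at most 9 UMIs in any class.

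**Figure D3:**
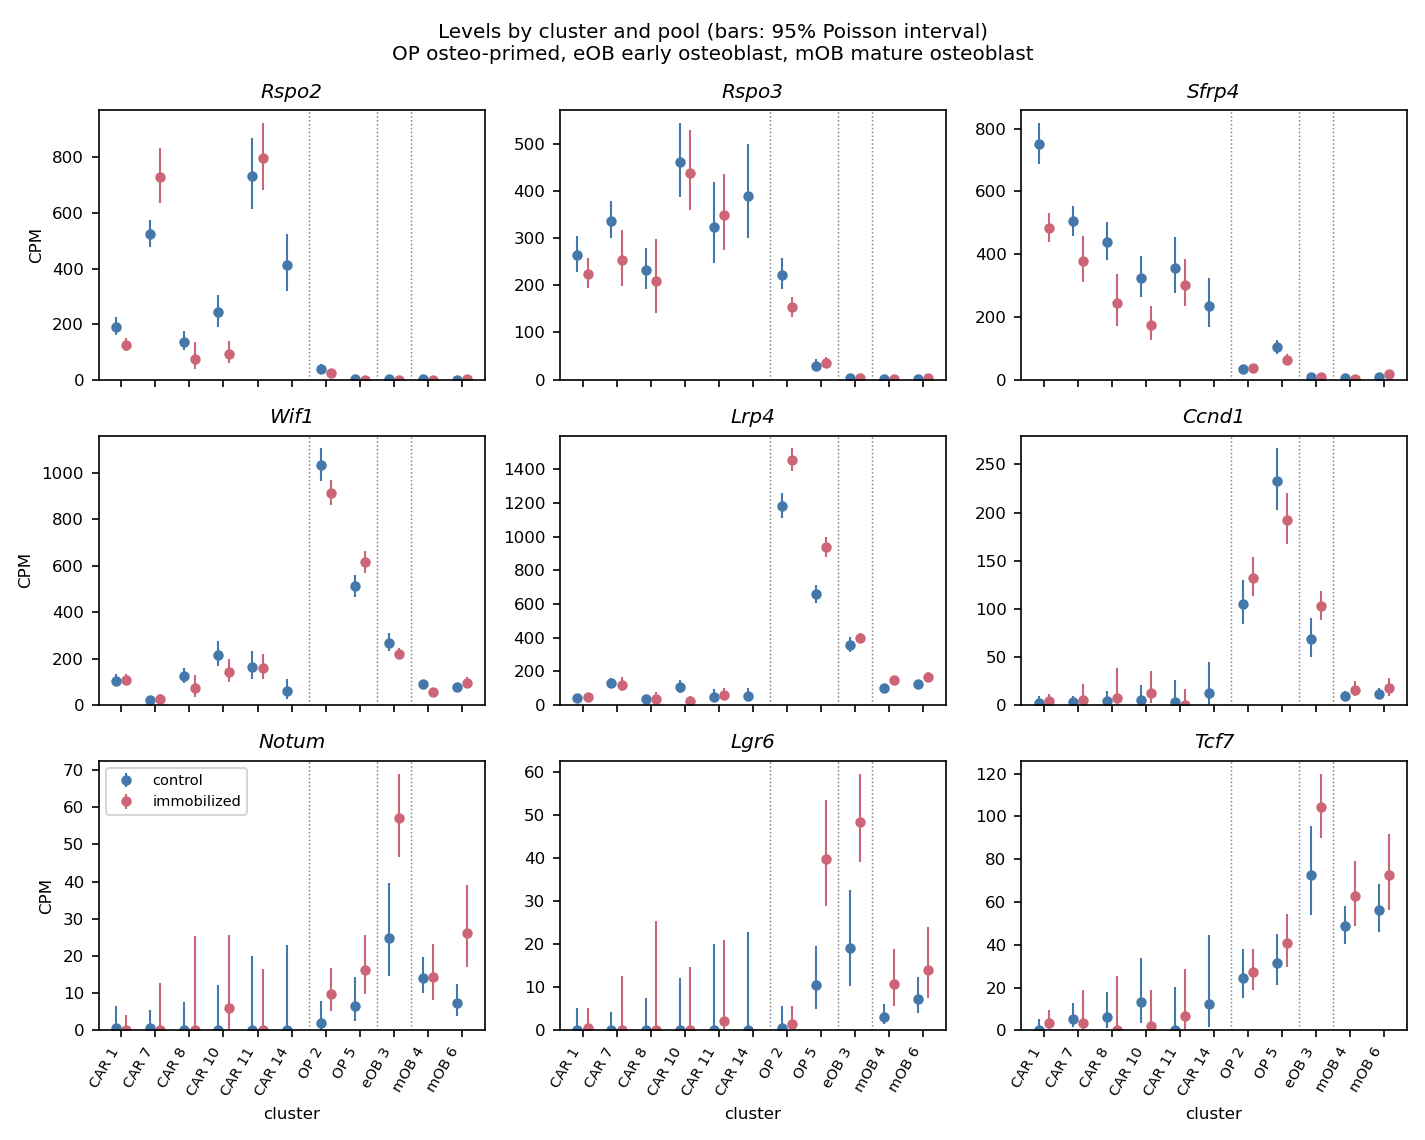
CPM of 9 of the genes in the 11 clusters of the 4 classes, control and immobilized pool side by side, with 95% Poisson intervals as bars; dotted lines separate the classes, and a pool with under 10 cells in a cluster is not drawn (CAR cluster 14, immobilized). Rspo2 is uneven over the CAR clusters, Wif1 and Lrp4 peak in osteo-primed cluster 2, and Lgr6 lies in osteo-primed cluster 5 and the early osteoblasts.

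The nuclear side of the pathway was ordered by class too. Ctnnb1, the gene of beta-catenin, was at 113 and 129 CPM in CAR cells, 553 and 701 in osteo-primed cells, 388 and 552 in early osteoblasts and 341 and 381 in mature osteoblasts, and its ratio was 1.27 (1.17 to 1.37) in osteo-primed cells, 1.42 (1.24 to 1.63) in early and 1.12 (1.02 to 1.22) in mature osteoblasts. Haematopoietic cells also held it, with a UMI in 25.3% and 27.1% of them. Its level in them was higher in the immobilized pool as well, at 63.9 and 154.9 CPM (21.5 and 53 UMIs). The 4 Tcf and Lef genes had different orders. Tcf7l1, which mostly represses, was at 324 and 368 CPM in CAR cells, 213 and 236 in osteo-primed cells, 60.5 and 106 in early osteoblasts and 45.7 and 75.2 in mature osteoblasts, highest in CAR cells and lowest in mature osteoblasts. Tcf7l2 was at 376 and 398 CPM in CAR cells, 532 and 614 in osteo-primed cells, 211 and 219 in early osteoblasts and 111 and 153 in mature osteoblasts, with the top in osteo-primed cells, and its ratio in CAR cells, where it had the most UMIs of these genes, was 1.06 (0.963 to 1.17). Tcf7, itself a target of the pathway, ran the other way, with 4.98 and 3.55 CPM in CAR cells, 28.1 and 33.4 in osteo-primed cells, 72.6 and 104 in early osteoblasts and 51.8 and 67.1 in mature osteoblasts. Within osteoblasts its ratio was 1.44 (1.05 to 1.99) in the early and 1.29 (1.04 to 1.61) in the mature class.

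Lef1 was at 4.42 and 8.19 CPM in CAR cells, 25.2 and 25.3 in osteo-primed cells, 2.13 and 11.6 in early osteoblasts and 4.0 and 4.15 in mature osteoblasts. Its ratio in early osteoblasts, 5.42 (1.13 to 79.6), rests on 1.5 control UMIs in 2 cells against 21.5 UMIs in 19 cells, and the log2 ratio was 0.19, in place of 2.06, with cells of at least 300 genes and under 20% mitochondrial counts. In osteo-primed cells, with 43.5 and 60.5 UMIs, the ratio was 1.0 (0.667 to 1.51). Lef1 was also found in haematopoietic cells, at 75.8 and 51.1 CPM, and within these in the B lineage cluster, at 499 and 590.5 CPM.

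Among the targets, Ccnd1, the gene of cyclin D1, was at 3.69 and 5.19 CPM in CAR cells, 172 and 160.2 in osteo-primed cells, 68.3 and 103 in early osteoblasts and 10.4 and 16.4 in mature osteoblasts. It was thus highest in osteo-primed cells, more in cluster 5 (233 and 193 CPM) than in cluster 2 (105 and 132 CPM), and higher in the immobilized pool in early osteoblasts, at 1.51 (1.09 to 2.11). The feedback inhibitor Nkd2, which acts on Dishevelled, was at 43.7 and 41.2 CPM in CAR cells, 11.9 and 5.64 in osteo-primed cells, 26.3 and 19.9 in early osteoblasts and 19.2 and 17.3 in mature osteoblasts. Its ratio in osteo-primed cells was 0.474 (0.22 to 0.989), from 20.5 and 13.5 UMIs. Nkd1, its relative, was at 14.7 and 16.1 CPM in CAR cells and at most 3.19 CPM elsewhere. Apcdd1, a membrane inhibitor, was at 11.1 and 16.7 CPM in CAR cells, 19.4 and 14.6 in osteo-primed cells, 42 and 37.1 in early osteoblasts and 28.2 and 26.8 in mature osteoblasts. Axin2, often used as a readout of the beta-catenin branch, had between 3 and 15.5 UMIs in any class and pool and could not be compared, and Sp5 had at most 3 UMIs.

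Cells could be split by sex, since the pools held cells of both (Xist against Y-linked genes), and the differences were then set out within each. Wnt5b in CAR cells was at 46.8 and 83.4 CPM in female and 8.84 and 43 CPM in male cells, higher in the immobilized pool in both, with log2 ratios of 0.84 and 2.23. Control male cells were the low group, at 10.5 UMIs. Dkk1 in osteo-primed cells was lower in the immobilized pool in both sexes, at 41.6 and 25.6 CPM in female and 102 and 39.8 CPM in male cells. Wnt4 was likewise higher there in both, at 156 and 195 CPM in female and 78.4 and 165 CPM in male cells. In female mature osteoblasts, which were 346 and 160 cells, Wnt4 was at 216 and 135 CPM, so that the lower level in the immobilized pool was present there without the male cells. Male mature osteoblasts went the other way, at 43.5 and 84.1 CPM (6 and 37.5 UMIs). They were only 13 and 39 cells, too few for a comparison.

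For Notum and Lgr6 in osteo-primed cells the gap was wider in female cells. Notum was at 3.71 and 17.2 CPM in female cells (4.5 and 22.5 UMIs) and 6.72 and 8.18 CPM in male cells (3 and 7.5 UMIs). Lgr6 was at 5.76 and 26.3 CPM in female and 6.72 and 10.4 CPM in male cells. Both were higher in the immobilized pool in either sex. The log2 ratio in male cells was 0.15 and 0.47, and the difference between the sexes was not tested. In female early osteoblasts the log2 ratio was 1.04 for Notum, 1.05 for Lgr6 and -1.47 for Dkk1. Male early osteoblasts, 11 and 55 cells, were too few for a comparison.

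For many of the 48 genes the 2 sexes differed in sign. In CAR cells the log2 ratios in female and male cells had opposite signs for 19 of the 31 compared genes, beside 41.1% of all genes compared, and in osteo-primed cells for 19 of 31, beside 47.5%. The intervals of the sexes lay apart for none of these in CAR cells and for 9 in osteo-primed cells: Wnt5b, Ror2, Lgr4, Znrf3, Tcf7l1 and Ctnnb1, above 1 in female and below 1 in male cells, and Sfrp4, Dkk3 and Rspo3, the other way. The share of all genes with intervals apart is not given, so this count has no background beside it. For Tcf7l1 the ratio was 1.42 (1.19 to 1.7) in female and 0.685 (0.552 to 0.852) in male cells, and for Sfrp4 it was 0.486 (0.344 to 0.678) in female and 1.62 (0.867 to 3.24) in male cells. For Wnt5b it was 1.81 (1.36 to 2.43) in female and 0.836 (0.544 to 1.3) in male cells. Over the whole class the pool ratio of these 9 genes thus joined female and male cells whose log2 ratios had opposite signs. The intervals do not cover spread between animals, and the difference between the sexes was not tested. Nkd2 in osteo-primed cells and Lgr5 in CAR cells, both low in counts, were also among the genes of opposite sign.

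**Figure D4:**
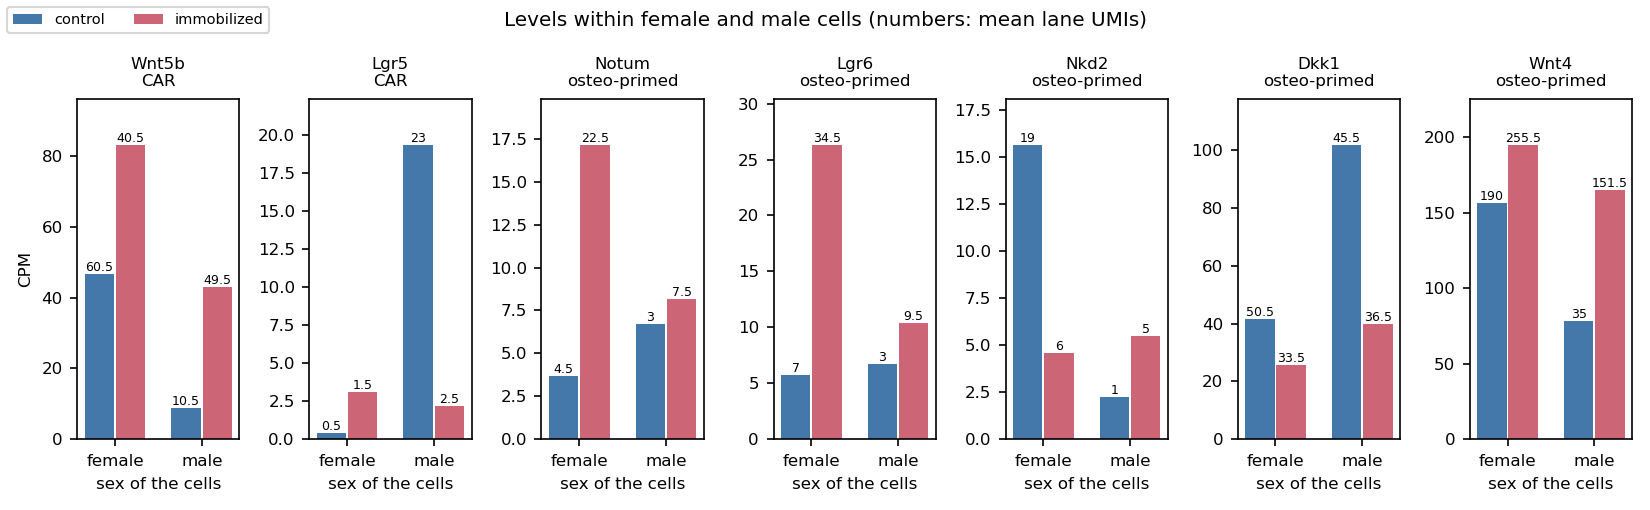
CPM of 7 gene and class pairs within female and male cells of the control and the immobilized pool, as bars from 0, each on its own scale, with the mean lane UMIs printed above each bar. Wnt5b in CAR cells and Wnt4 are higher and Dkk1 lower in the immobilized pool in both sexes, while Lgr5 and Nkd2 differ in sign and rest on few UMIs.

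The number of genes with a higher share of cells in 1 pool moved when depth was made equal. In early osteoblasts 23 of the 25 compared genes had a higher share in the immobilized pool, where cells were deeper, and 20 of 25 after thinning each cell to 2000 UMIs (80 and 223 cells remained). In CAR cells these were 21 of 31 and 15 of 31, in osteo-primed cells 14 and 19 of 31, and in mature osteoblasts, which were shallower in the immobilized pool, 14 and 19 of 26. The same counts over all genes are not given, so these are not read as particular to the 48 genes. By CPM, 18 of the 25 genes in early osteoblasts had a log2 ratio above 0, beside 5014 of all 8058 genes compared. For Ror1 in CAR cells the share was 33.7% and 50%, and 21.3% and 32.7% after thinning.

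The rest of the pathway was followed in a list of 87 other genes: further ligands, receptors and inhibitors, the secretion, cytoplasmic and planar polarity machinery, heparan sulfate modulators and further targets. Of 61 that could be compared in CAR cells and 56 in osteo-primed cells, none was past 2-fold. In early osteoblasts 1 of 47 was, and in mature osteoblasts 2 of 55. Sulf1, which trims heparan sulfate and so frees Wnts, was higher in the immobilized pool in early osteoblasts, with 10.7 and 31.5 CPM and a ratio of 2.95 (1.38 to 7.39). In mature osteoblasts it was at 7.88 and 15.9 CPM, a ratio of 2.01 (1.21 to 3.35), and in CAR cells its ratio was 1.64 (1.48 to 1.83). Wnt9a, a ligand, was lower in mature osteoblasts, with 26 and 5.5 UMIs and a ratio of 0.452 (0.144 to 1.16). Gpc3, a glypican, fell just short in CAR cells, at 2.0 (1.03 to 4.0) and a log2 ratio of 0.99, and Tnfrsf19, a target gene, was at 1.7 (1.38 to 2.09) in mature osteoblasts. The median log2 ratio of this list was 0.08 in CAR cells, 0.05 in osteo-primed cells, 0.28 in early and 0.30 in mature osteoblasts, close to that of the 48 genes in the osteoblast classes.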

How the data were processed

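Droplet single-cell RNA-seq (10x Genomics, 3' v3.1 chemistry, per the labels' protocols) had been made of sorted tdTomato+ cells, 1 control and 1 immobilized pool, each in 2 lanes. The authors deposited unnormalized UMI counts for each gene and barcode. Per the file headers, and likewise per the submitters' processing notes, Cell Ranger 7.0.0 made them; the notes name the build mm10. No source used here names the annotation release. Gene positions are from GENCODE on GRCm38, in which 32235 of the 32286 identifiers were found, all 48 genes among them.

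The lanes of a pool shared 1617 of 1620 control and 1747 of at most 1754 immobilized barcodes. UMIs per barcode correlated across cells at r = 0.999874 and 0.999777, chi-square between lanes averaged 0.534 for 14619 genes and 0.586 for 14737 genes, where independent lanes would give about 1, and 79.0% and 75.5% of lane 1 UMIs were found in lane 2 entry by entry. The lanes were therefore averaged and counted as 1 sample. Cells needed 500 genes and a mitochondrial share under 10%: 49 and 58 fell below the first limit, 146 and 300 reached the second. Scrublet called 11 (0.76%) and 10 (0.70%) doublets, which were removed. Clusters were made in scanpy 1.11.5 from 2000 variable genes without the 48, 30 principal components, 15 neighbours and Leiden resolution 1 (igraph 0.11.9). They were named from 23 marker lists without the 48 genes: a marker counted at over 2-fold the mean of all other cells and a UMI in at least 10% of the cluster, and a name needed 3 markers and 30% of its list. Clusters of 1 name were pooled. Among the leading 10 genes against cells outside the class, own markers were never outnumbered by those of another type; against all other cells mature cluster 6 had Col2a1 and CAR cluster 10 had Plin1 and Cfd there. CAR cluster 14, with 40 and 3 cells, was led by Cxcl1 and Icam1. The names are a rebuilding and not the authors' annotation.

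CPM are summed UMIs of a class per 1e+06 UMIs. Levels carry exact Poisson, ratios exact conditional binomial intervals, both 95% and for counting error only, with UMIs taken as independent. For log2 ratios 0.5 counts were added. A gene was compared in a class where it reached a mean of 20 counts per lane in 1 pool, and past 2-fold means a log2 ratio of at least 1 or at most -1. Cells with Xist and no Y-linked UMI were called female, the reverse male. On simulated counts at the depth of the classes, between 97.0% and 98.5% of genes changed 3-fold came out past 2-fold, and between 0.73% and 1.93% of unchanged genes did. These were Poisson counts with no spread between cells, animals or sexes, so the shares cover counting error only. The changed genes were drawn from those expected at 20 counts or more in the smaller pool. The shares thus do not extend to genes with fewer counts. Each gene with a count of at least 20 somewhere is given with its levels, and a ratio is given where it is past 2-fold, leads its role in a class, or is set beside such a value. The 48 genes, the list of 87 and the settings were chosen with earlier results of these data known. Alternatives were other cell limits, resolutions, scalings, count minimums and folds, thinning, single lanes and cells of 1 sex.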

Additional observations from a re-analysis of the deposited data

Results flagged for a closer look

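The log2 ratio of Lgr5 in CAR cells had opposite signs in the sexes, 2.41 in female cells (0.5 and 1.5 UMIs) and -2.93 in male cells (23 and 2.5 UMIs). Nkd2 in osteo-primed cells was opposite too, at -1.69 in female (19 and 6 UMIs) and 0.83 in male cells (1 and 5 UMIs). In osteo-primed cells 9 further genes had opposite signs and counting intervals that lay apart, a count without a share over all genes beside it. In female and then male cells the log2 ratio was 0.85 and -0.27 for Wnt5b, 0.48 and -1.22 for Ror2, 0.53 and -0.12 for Lgr4, 1.02 and -0.0791 for Znrf3, 0.51 and -0.55 for Tcf7l1, 0.54 and -0.0665 for Ctnnb1, -1.04 and 0.66 for Sfrp4, -0.93 and 2.63 for Dkk3 and -0.89 and 0.49 for Rspo3. Dkk3 had only 1.5 UMIs in control male cells. With 1 pool per group no difference between the sexes was tested.

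Wnt4 had log2 ratios of opposite sign between classes whose intervals lie apart from 0: 0.36 in CAR cells, 0.42 in osteo-primed cells and -0.80 in mature osteoblasts. Fzd5 was at 0.32 in osteo-primed and -0.59 in CAR cells. Lrp4 was at 0.43 in osteo-primed cells, 0.49 in mature osteoblasts and -0.47 in CAR cells. These differences between classes were not tested.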

How the results depend on the processing

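No paired analysis was possible because the lane numbers name the same cells of 1 pool per group. The number of the 48 genes past 2-fold, 2 in CAR cells, 3 in osteo-primed cells, 4 in early and 2 in mature osteoblasts, moved with several settings. With each cell thinned to 2000 UMIs it was 1, 1, 1 and 0 in that order, and with a count minimum of 50 it was 1, 0, 3 and 0, where fewer genes were compared. At 1.5-fold it was 6, 6, 6 and 10, of 31, 31, 25 and 26 compared. Over all genes, 605 were 1.5-fold higher and 628 lower of 10446 in CAR cells. These were 643 and 457 of 9844 in osteo-primed cells, 964 and 321 of 8058 in early and 1050 and 663 of 9608 in mature osteoblasts. Within female cells the number of the 48 genes past 2-fold was 1, 6, 3 and 4, of 28, 29, 22 and 26 compared. With doublet calls kept it was 5 in osteo-primed cells and 4 in mature osteoblasts. Leiden resolutions of 0.5 and of 2.0 and median-ratio scaling each gave 1 in CAR cells. Limits of 300 genes and 20% mitochondrial counts gave 2 of 26 compared in early osteoblasts, and 1000 genes and 5% gave 9 of 24 in mature osteoblasts. Shares over all genes are given only for the main setting and for 1.5-fold. Without the Atf3 cluster mature osteoblasts had 4, an alternative chosen after seeing the data. Using 1 lane of a pool gave between 1 and 2 in CAR cells, 2 and 3 in osteo-primed cells, 4 in early osteoblasts and 2 and 3 in mature osteoblasts. The cause of the others was not tested.

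The log2 ratio of Lgr5 in CAR cells reversed to 2.41 within female cells and that of Nkd2 in osteo-primed cells to 0.83 within male cells. Over their alternatives Notum in osteo-primed cells ranged from 0.15 (male) to 2.09 (female), Lgr6 there from 0.47 (male) to 2.90 (control lane 2 alone), and Lef1 in early osteoblasts from 0.19 (limits of 300 genes and 20%) to 2.48 (control lane 2 alone). Past 2-fold were Wnt5b in CAR cells in 11 of 17 alternatives, Nkd2 in osteo-primed cells in 9 of 17, Notum in 15 of 17 there and 13 of 15 in early osteoblasts, Dkk1 and Lef1 in early osteoblasts in 13 and 12 of 15, Lgr6 in 15 of 17, 14 of 15 and 15 of 16 in the osteo-primed, early and mature classes, and Ror2 in mature osteoblasts in 15 of 16. Ror2 in mature osteoblasts ranged from 0.97 to 1.77, Wnt5b in CAR cells from 0.84 to 2.23, and Lgr6 in mature osteoblasts from 0.93 to 2.95. The genes highest in the same class in both pools numbered 31 of 37, with 33 of 37 at resolution 0.5, 33 of 36 at resolution 2.0, 21 of 24 after thinning, 27 of 37 by UMIs per cell and 24 of 33 within female cells. With limits of 1000 genes and 5% mitochondrial counts no early osteoblast class was found, and male cells alone were too few in the early and mature classes. Depth limits the genes under 20 UMIs, Axin2 among them.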

Other observations

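A cluster with osteocyte markers held 3 control and 40 immobilized cells and was too small in the control pool to be compared. In its immobilized cells Tcf7l2 was at 838 CPM (664 to 1044), Lgr4 at 285 CPM (188 to 414), Sfrp4 at 232 CPM (145 to 351), Lgr6 at 227 CPM (141 to 345) and Wnt5b at 216 CPM (133 to 332). Lgr6 had 21.5 UMIs in these 40 cells, beside 90 in the 240 early osteoblasts of the same pool. Notum had 0 UMIs there, and Wnt4, at 1 UMI, was at 10.5 CPM. Sfrp4, a gene highest in CAR cells among the 4 classes, was thus also found at the osteocyte end of the lineage, while Wif1 was at 73.8 CPM.

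A cycling cluster of 27 control and 37 immobilized cells carried the osteo-primed pattern, with Lrp4 at 735 and 715 CPM, Wif1 at 443 and 370.0 CPM and Ccnd1 at 213 and 108 CPM. Its Notum was at 17.7 and 41.6 CPM and its Rspo2 at 14.4 and 15.2 CPM.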
